A study of Rattus norvegicus with 6 samples.

Results

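The progesterone receptor, its paracrine mediators and a set of progestin-responsive genes were followed in bulk RNA-seq of 6 rat mammary tumors. Members were taken by gene symbol, and all 9 symbols (Pgr, Tnfsf11, Tnfrsf11a, Tnfrsf11b, Wnt4, Areg, Fkbp5, Zbtb16 and Id4) were found among the 30562 rows of the read count table. The tumors came from F344 rats, an inbred strain used in aging studies. Tumors 102, 107 and 116 were from older rats and tumors 157, 158 and 167 from younger rats. Older rats arrived at 19 to 21 months of age and were 21 to 23 months old at the time of carcinogen. Younger rats arrived as virgin animals of 6 to 8 weeks and were given the carcinogen at 4 months. Both groups carried a subcutaneous 50 mg pellet of medroxyprogesterone acetate (MPA, a synthetic progestin) that releases drug for 90 days, and both received a single gavage of 65 mg per kg of the carcinogen 7,12-dimethylbenz[a]anthracene (DMBA) in sesame oil. Rats were monitored for 10 months, and the day on which each sequenced tumor was removed is not given in the sources used here, so it is unknown whether a pellet was still releasing MPA at that time. No tumor or gland from a rat without MPA is among the libraries, so the response to the pellet itself was not measured.

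Libraries held 3508571 to 6525830 counts, and 3 counts corresponded to 0.516 to 0.99 CPM (counts scaled to library size with edgeR's TMM factors). Tumor 102 stood apart from the rest, with a mean correlation of 0.83 with the other libraries across all genes tested, where the other tumors had 0.869 to 0.90. All 6 tumors had mammary epithelium by their markers: Epcam ran from 290 to 480 CPM and the casein gene Csn2 from 573 to 106703 CPM. Every value below is from a bulk tumor, in which fewer cells of a type and less RNA per cell cannot be told apart, and each tumor is a single library.

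In the mammary gland the progesterone receptor, encoded by Pgr, is found in a subset of luminal cells that also carry the estrogen receptor. Those cells respond to progestins by releasing ligands that act on neighboring cells. RANKL (Tnfsf11) binds RANK (Tnfrsf11a) on adjacent epithelial cells and activates NF-kB, osteoprotegerin (Tnfrsf11b) is a soluble decoy that captures RANKL, and WNT4 (Wnt4) acts on basal and stem-like cells. Amphiregulin (Areg), an EGFR ligand, is best known as the paracrine mediator of estrogen in duct growth. Fkbp5, a co-chaperone of steroid receptors, and Zbtb16, a zinc finger transcription factor, are induced by progestins and also by glucocorticoids, and MPA binds the glucocorticoid receptor as well as the progesterone receptor.

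Upstream sequences of the receptor, of the ligands Tnfsf11 and Areg, whose levels varied widely between tumors and of Fkbp5 are shown because steroid receptors act through short DNA motifs. The RefSeq promoter table of build GRCr8 held 6 of the 9 members. The 250 bases before the annotated start are printed 5′ to 3′ for Pgr at chr8:14354148-14354397 (plus strand), Tnfsf11 at chr15:60114480-60114729 (minus strand), Areg at chr14:17265642-17265891 (minus strand) and Fkbp5 at chr20:6543556-6543805 (minus strand). Capitals mark the steroid hormone response core TGTTCT, the cAMP response element TGACGTCA and the TATA box TATAAA, each searched on both strands.
Pgr: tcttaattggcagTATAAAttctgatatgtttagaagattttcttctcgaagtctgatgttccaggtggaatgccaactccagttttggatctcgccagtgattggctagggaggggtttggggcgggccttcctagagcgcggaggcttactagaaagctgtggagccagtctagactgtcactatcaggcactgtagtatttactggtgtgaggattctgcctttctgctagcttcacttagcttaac
Tnfsf11: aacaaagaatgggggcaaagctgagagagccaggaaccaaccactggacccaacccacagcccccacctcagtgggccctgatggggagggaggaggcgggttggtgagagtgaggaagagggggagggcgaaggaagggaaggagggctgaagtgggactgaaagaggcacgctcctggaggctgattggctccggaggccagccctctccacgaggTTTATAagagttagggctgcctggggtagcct
Areg: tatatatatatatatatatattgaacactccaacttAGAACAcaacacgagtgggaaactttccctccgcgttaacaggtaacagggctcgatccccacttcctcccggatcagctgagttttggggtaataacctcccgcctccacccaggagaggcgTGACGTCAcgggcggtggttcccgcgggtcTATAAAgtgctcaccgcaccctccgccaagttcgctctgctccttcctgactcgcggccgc
Fkbp5: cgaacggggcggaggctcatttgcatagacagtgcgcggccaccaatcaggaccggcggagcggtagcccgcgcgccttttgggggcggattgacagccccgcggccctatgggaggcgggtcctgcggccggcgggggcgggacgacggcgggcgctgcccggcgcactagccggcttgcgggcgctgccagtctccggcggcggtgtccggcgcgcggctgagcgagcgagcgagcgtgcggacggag
The Areg window held the hormone response core, a cAMP response element 91 bases and a TATA box 61 bases before the start. The Tnfsf11 window held the TATA letters on the opposite strand, 32 bases before the start, and the Pgr window held them 237 bases before the start. No searched motif lay in the Fkbp5 window. Among the 33469 promoters of this length, 17.5% held the hormone response core on either strand, 0.012% the palindrome of this core with 3 bases between its arms, 1.59% the cAMP response element and 12.9% the TATA letters. The palindrome was in none of the 6 member windows, and the windows do not cover introns or distant enhancers.

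Pgr was at 44.9 CPM (tumor 102), 370.0 CPM (tumor 107) and 87.7 CPM (tumor 116) in older rats. In younger rats it was at 114 CPM (tumor 157), 26.4 CPM (tumor 158) and 109 CPM (tumor 167). The receptor transcript was thus present in every tumor, with the highest level in older tumor 107 and the other older tumors inside the younger range. The means were 168 ± 177 CPM (SD, n = 3) and 83.2 ± 49.3 CPM (SD, n = 3), which gave a log2 fold change of 1.01 (standard error, SE, 0.82, edgeR adjusted p = 0.842), older against younger, in edgeR's quasi-likelihood test. Without tumor 107 the log2 fold change was -0.32. Relative to the estrogen receptor Esr1 in the same tumor, Pgr counts were higher in all older tumors: the log2 ratio was 3.34, 2.68 and 1.84 in tumors 102, 107 and 116, and 1.80, 0.43 and 1.36 in tumors 157, 158 and 167. The ratio of tumor 102, the highest, rested on 13 counts of Esr1, the fewest of any tumor. The groups were separated by the narrow gap between tumors 116 and 157, and the difference of 1.43 gave p = 0.1 in the two-sided exact permutation test, the smallest p that 3 tumors against 3 allow (0.3 adjusted over 3 ratios).

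**Figure D1:**
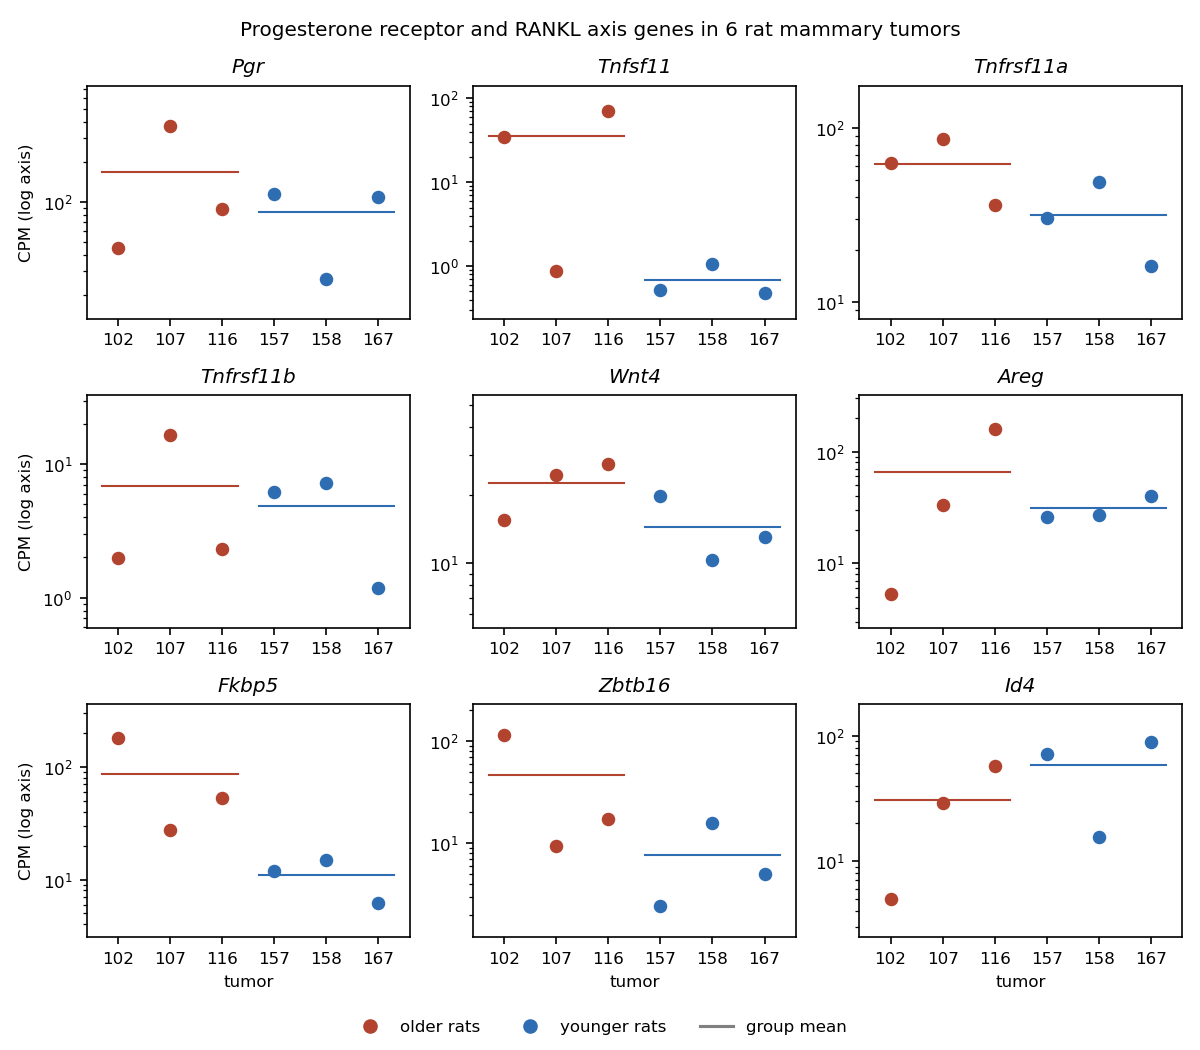
CPM (log axis, a separate scale for each gene) of the 9 members in each tumor, red for older and blue for younger rats, with the group means as lines. Tnfsf11 was at 34.3 and 70.1 CPM in older tumors 102 and 116 and at 0.475 to 1.06 CPM in the other tumors, and Fkbp5 is the member whose older tumors all lie above the younger ones.

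Tnfsf11, the gene of RANKL, had 104, 4 and 362 counts in older tumors 102, 107 and 116, and 3, 6 and 2 counts in younger tumors 157, 158 and 167. This corresponded to 34.3 CPM (95% exact Poisson interval 28.0 to 41.6) in tumor 102 and 70.1 CPM (63.0 to 77.7) in tumor 116. The other 4 tumors were at 0.878 CPM (tumor 107, 0.239 to 2.25), 0.516 CPM (tumor 157, 0.106 to 1.51), 1.06 CPM (tumor 158, 0.387 to 2.30) and 0.475 CPM (tumor 167, 0.0575 to 1.72), and these intervals, which cover counting error only, overlap. RANKL mRNA was therefore abundant in 2 older tumors and near the floor in the third older tumor and in all younger tumors. The third older tumor, tumor 107, was the one with the highest Pgr. Since only 2 libraries reached the filter on low counts, Tnfsf11 was not among the genes tested in the age comparison. On the log2 CPM scale (prior count 2) the difference between the group means was 3.77 (two-sided exact permutation test, p = 0.2). When all genes with at least 1 count were tested, its log2 fold change was 5.59 (SE 1.19, edgeR adjusted p = 0.161). In DESeq2 on all rows, a fit chosen after the values were seen, it was 5.65 (SE 1.09, adjusted p = 1.07e-04), where 2.32% of the genes with an adjusted p were called. Both fits set group means against each other, although tumor 107 was far below the other older tumors.

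Tnfrsf11a, the gene of the receptor RANK, was at 63.0, 86.7 and 36.2 CPM in older tumors 102, 107 and 116 and at 30.4, 48.9 and 16.1 CPM in younger tumors 157, 158 and 167. The older tumors were higher on average, but tumor 158 lay above tumor 116, and the log2 fold change of 0.96 (SE 0.47, edgeR adjusted p = 0.66) did not pass. Tnfrsf11b, the gene of osteoprotegerin, had few counts. It was at 1.98 CPM (6 counts), 16.5 CPM (75 counts) and 2.32 CPM (12 counts) in tumors 102, 107 and 116, and at 6.19, 7.21 and 1.19 CPM (36, 41 and 5 counts) in tumors 157, 158 and 167. Its log2 fold change of 0.51 (SE 0.94, edgeR adjusted p = 0.942) was -1.18 without tumor 107. The decoy was at its highest in the older tumor with little ligand and low in both tumors with much ligand. It was lowest, however, in younger tumor 167, which also had little ligand.

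The balance of ligand and decoy was calculated inside each tumor, which removes library scaling. The log2 ratio of Tnfsf11 to Tnfrsf11b counts was 4.01 in tumor 102 and 4.86 in tumor 116, so that ligand reads outnumbered decoy reads there. In the other tumors it was negative, at -4.07 (tumor 107), -3.38 (tumor 157), -2.67 (tumor 158) and -1.14 (tumor 167), the last from 2 and 5 counts. Older tumors held both the highest and the lowest ratio, with a mean of 1.60 ± 4.93 (SD, n = 3) against -2.40 ± 1.15 (SD, n = 3), and the difference of 4.0 gave p = 0.4 (two-sided exact permutation test). Against the receptor, the log2 ratio of Tnfsf11 to Tnfrsf11a was -0.87, -6.46 and 0.95 in tumors 102, 107 and 116 and -5.66, -5.42 and -4.78 in tumors 157, 158 and 167, with a difference of 3.16 (two-sided exact permutation test, p = 0.4). As gene lengths differ, a ratio of 0 does not mean equal numbers of transcripts, and only differences between tumors are read from it.

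**Figure D2:**
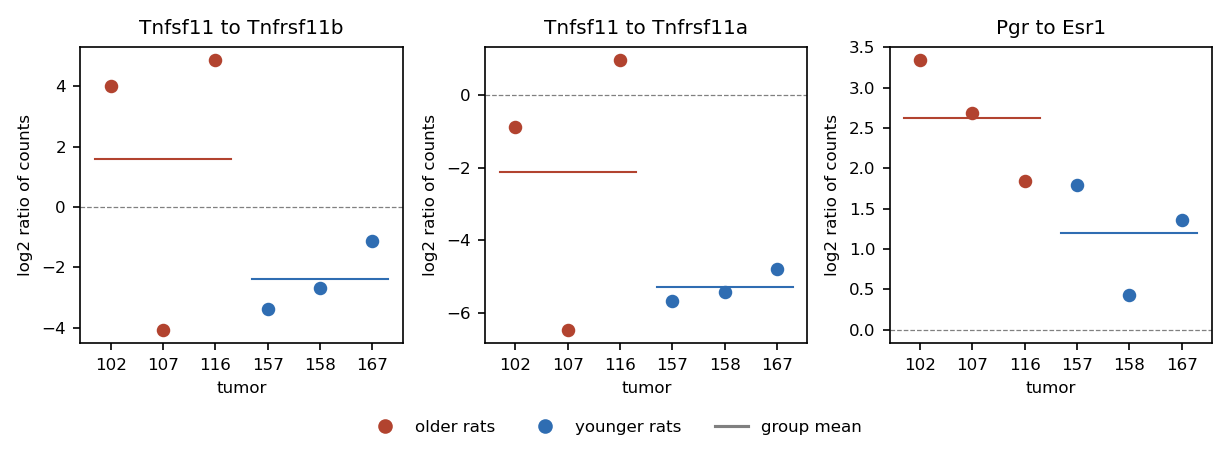
Log2 ratio of read counts within each tumor for Tnfsf11 to Tnfrsf11b, Tnfsf11 to Tnfrsf11a and Pgr to Esr1, with group means as lines, red for older and blue for younger rats. Older tumors 102 and 116 lie far above all others in both Tnfsf11 ratios while older tumor 107 is the lowest. The Pgr to Esr1 ratio is higher in all older tumors, with a narrow gap between tumors 116 and 157.

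The other genes of RANK signalling were 12 listed adaptors, kinases, NF-kB subunits and targets, all of which were tested. By sign alone 11 were higher and 1 was lower in older tumors, with a median log2 fold change of 0.37 where that of all genes tested was 0.00. After adjustment 0 of the 12 passed in edgeR's test, and an unadjusted p under 0.05 by 2, Traf2 and Relb, both higher in older tumors, where 8.55% of all genes tested had such a p. Traf2, an adaptor of TNF receptors, was at 32.3, 28.7 and 38.1 CPM in tumors 102, 107 and 116 and at 22.0, 22.9 and 19.2 CPM in tumors 157, 158 and 167 (log2 fold change 0.63, SE 0.25, edgeR adjusted p = 0.541). Rela, the NF-kB subunit p65, had the only negative value, with a log2 fold change of -0.08 (SE 0.27, edgeR adjusted p = 0.973). The subunits of the non-canonical NF-kB pathway, named after their values were seen, had the same tumors on top as Tnfsf11. Nfkb2 was at 73.2, 30.3 and 81.3 CPM in the older tumors and at 38.9, 34.5 and 23.5 CPM in the younger tumors. Relb was at 37.6, 20.8 and 39.9 CPM in the older tumors and at 21.7, 20.4 and 11.2 CPM in the younger ones. For both genes tumors 102 and 116 were high and tumor 107 lay within the younger range. The kinase gene Map3k14 of the same list had another pattern, with its highest value in tumor 107. It was at 14.8, 41.7 and 20.1 CPM in the older tumors and at 25.1, 10.2 and 35.4 CPM in the younger tumors. The adjusted p in edgeR's test was 0.593 for Nfkb2 and 0.584 for Relb.

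**Figure D3:**
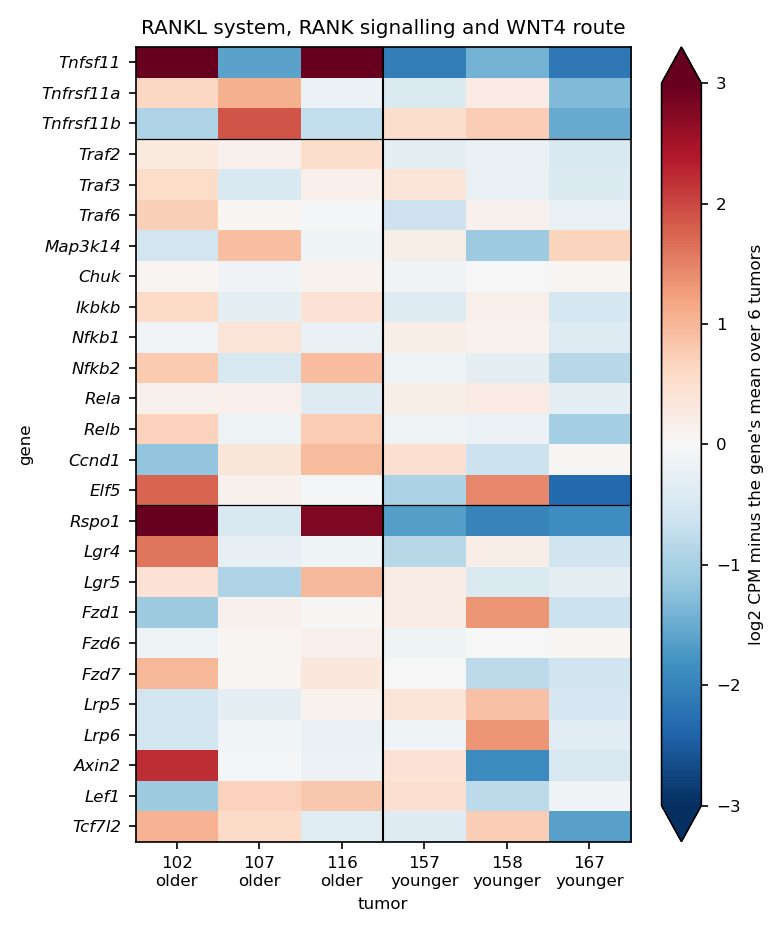
Log2 CPM minus the gene's mean over the 6 tumors (color, clipped at 3 in either direction) for the RANKL system, RANK signalling genes and WNT4 route genes. Columns 102 and 116 are the high columns for Tnfsf11, Rspo1, Nfkb2 and Relb, and column 107 is the high column for Tnfrsf11a and Tnfrsf11b.

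Wnt4 varied least of the members, with a highest tumor 2.65 times the lowest. It was at 15.5, 24.4 and 27.5 CPM in older tumors 102, 107 and 116 and at 19.8, 10.4 and 13.1 CPM in younger tumors 157, 158 and 167. The ranges overlapped through tumors 102 and 157, and the log2 fold change was 0.64 (SE 0.37, edgeR adjusted p = 0.742). Of 11 listed genes of the WNT4 route, 9 were tested, 6 of them higher and 3 lower in older tumors by sign, and 0 passed an adjusted p of 0.05. The frizzled receptor gene Fzd7 had the smallest p among those that were higher (92.0 ± 33.2 and 48.2 ± 14.6 CPM, SD, n = 3 each, log2 fold change 0.93, SE 0.34, edgeR adjusted p = 0.489). The co-receptor gene Lrp6 had the smallest p among those that were lower (log2 fold change -0.77, SE 0.46, edgeR adjusted p = 0.758). Rspo1, the gene of R-spondin 1, an amplifier of WNT signals in the mammary gland, was named after its values were seen. It had 67, 6 and 84 counts in tumors 102, 107 and 116 and 2, 1 and 1 counts in tumors 157, 158 and 167. Like Tnfsf11 it was high in tumors 102 and 116, and edgeR did not test it because only those libraries had enough counts. DESeq2 on all rows, the fit chosen after the values were seen, gave a log2 fold change of 5.67 (SE 1.15, DESeq2 adjusted p = 2.26e-04). That fit called 2.32% of the genes with an adjusted p. It set group means against each other, although tumor 107, with 6 counts, was far below the other older tumors.

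Areg was at 5.28, 32.9 and 159 CPM in older tumors 102, 107 and 116 and at 25.8, 27.1 and 40.4 CPM in younger tumors 157, 158 and 167. The older tumors thus held both the lowest and the highest amphiregulin level, with the younger tumors close together between them. The log2 fold change of 1.09 (SE 0.94, edgeR adjusted p = 0.856) was -0.69 without tumor 116. Among 9 listed EGF family ligands, receptors and the sheddase Adam17, 8 were tested and 0 passed an adjusted p of 0.05. The smallest p among the lower genes was that of the ligand gene Tgfa (log2 fold change -0.94, SE 0.47, edgeR adjusted p = 0.677) and among the higher genes that of the ligand gene Btc (0.95, SE 0.92, edgeR adjusted p = 0.875). The epiregulin gene Ereg, a neighbor of Areg in function, had 17 counts in tumor 116 and at most 3 in any other tumor.

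Fkbp5 had the largest log2 fold change of the 8 tested members. It was at 179 CPM (tumor 102), 27.4 CPM (tumor 107) and 52.6 CPM (tumor 116) in older rats, and at 11.9 CPM (tumor 157), 14.8 CPM (tumor 158) and 6.17 CPM (tumor 167) in younger rats. All older tumors lay above all younger tumors. The means were 86.3 ± 81.1 CPM (SD, n = 3) and 10.9 ± 4.37 CPM (SD, n = 3), which gave a log2 fold change of 2.96 (SE 0.72, edgeR unadjusted p = 0.00358, adjusted p = 0.311). With each tumor left out in turn the log2 fold change ran from 1.86, without tumor 102, to 3.38, without tumor 107, and the unadjusted p from 0.000744 to 0.0167 (edgeR). DESeq2 gave 2.97 (SE 0.68, adjusted p = 0.00202), which passed the threshold, where DESeq2 called 2.47% of the genes it tested.

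Zbtb16 was at 113 CPM (tumor 102), 9.44 CPM (tumor 107) and 17.2 CPM (tumor 116) in older rats, and at 2.41 CPM (tumor 157), 15.7 CPM (tumor 158) and 4.99 CPM (tumor 167) in younger rats. Tumor 102 was far above the others, and tumor 158 lay between the older tumors 107 and 116. The log2 fold change of 2.58 (SE 1.05, edgeR unadjusted p = 0.0399, adjusted p = 0.552) was 0.78 without tumor 102. Id4, an inhibitor of DNA-binding helix-loop-helix factors, went the other way: it was at 4.95, 29.2 and 57.5 CPM in tumors 102, 107 and 116 and at 72.0, 15.7 and 88.8 CPM in tumors 157, 158 and 167. Tumor 102 had the lowest Id4 level, and the log2 fold change was -0.93 (SE 0.85, edgeR adjusted p = 0.869). The related genes Id1, Id2 and Id3 were all tested and none passed an adjusted p of 0.05 in edgeR's test (0 of 3 at an unadjusted p under 0.05 and 0 by DESeq2). Id1 had the smallest p, with a log2 fold change of 0.81 (SE 0.61, edgeR adjusted p = 0.822).

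Fkbp5 and Zbtb16 also respond to glucocorticoids, and 12 glucocorticoid-responsive genes were listed, of which 11 were in the table and tested. By sign 9 were higher and 2 lower in older tumors, with a median log2 fold change of 0.78. An adjusted p under 0.05 was reached by 0 of them, and an unadjusted p under 0.05 by 3 (Sgk1 and Tsc22d3 higher, Ddit4 lower, edgeR), against 8.55% of all genes tested. Sgk1, a kinase gene of ion transport, was at 281, 259 and 141 CPM in tumors 102, 107 and 116 and at 54.7, 147 and 62.9 CPM in tumors 157, 158 and 167 (log2 fold change 1.36, SE 0.45, edgeR adjusted p = 0.424). Ddit4, an inhibitor of mTORC1 that also responds to hypoxia, was lower in older tumors (log2 fold change -1.27, SE 0.49, edgeR adjusted p = 0.514). Tsc22d3, the gene of the glucocorticoid-induced leucine zipper, and the clock gene Per1 were named after their values were seen. Tsc22d3 was at 351, 25.2 and 74.3 CPM in the older tumors and at 17.4, 35.2 and 29.2 CPM in the younger tumors. Per1 was at 539, 95.5 and 80.7 CPM in the older tumors and at 52.1, 109 and 53.7 CPM in the younger ones. As for Fkbp5 and Zbtb16, the highest value was that of tumor 102, whose estrogen receptor level was the lowest.

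**Figure D4:**
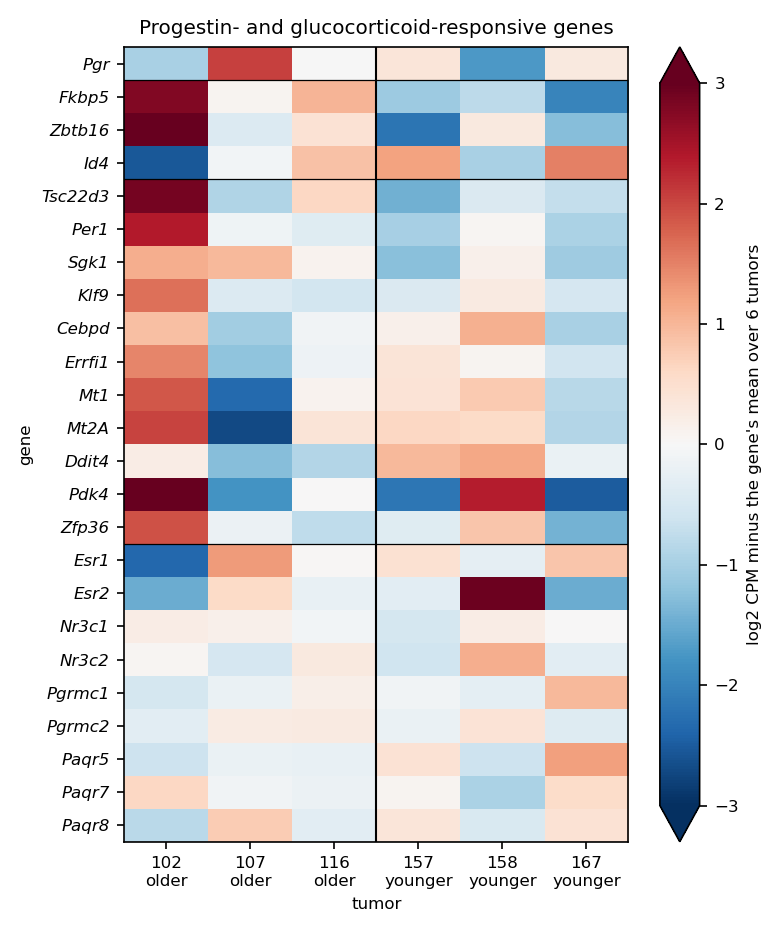
Log2 CPM minus the gene's mean over the 6 tumors (color, clipped at 3 in either direction) for Pgr, Fkbp5, Zbtb16 and Id4, 11 glucocorticoid-responsive genes and 9 steroid and membrane progestin receptors. Tumor 102 is the highest column for Fkbp5, Zbtb16, Tsc22d3 and Per1 and the lowest for Id4 and Esr1.

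Among the listed steroid and membrane progestin receptors, the glucocorticoid receptor gene Nr3c1 was at 388 ± 43.3 CPM (SD, n = 3) in older and 346 ± 85.3 CPM (SD, n = 3) in younger tumors (log2 fold change 0.17, SE 0.28, edgeR adjusted p = 0.937). Esr1 was at 4.29, 57.5 and 24.4 CPM in tumors 102, 107 and 116 and at 32.8, 19.5 and 42.5 CPM in tumors 157, 158 and 167 (log2 fold change -0.13, SE 0.75, edgeR adjusted p = 0.983), so tumor 102 had little estrogen receptor transcript. The mineralocorticoid receptor gene Nr3c2 (log2 fold change -0.28), the membrane-associated progesterone receptor components Pgrmc1 (-0.46) and Pgrmc2 (0.11), and the membrane progestin receptors Paqr5 (-0.88), Paqr7 (0.14) and Paqr8 (-0.13) had adjusted p values from 0.708 to 0.973 in edgeR's test, with 0 of them at an unadjusted p under 0.05 and 0 called by DESeq2. The estrogen receptor beta gene Esr2 had 49 counts in tumor 158 and at most 6 elsewhere and was not tested. Among 11 chaperones and coregulators of the receptor, 0 passed an adjusted p of 0.05 and 0 had an unadjusted p under 0.05 (edgeR). The co-chaperone gene Fkbp4, the counterpart of Fkbp5, had a log2 fold change of -0.41 (SE 0.24, edgeR adjusted p = 0.754) and the corepressor gene Ncor1 one of 0.42 (SE 0.30, edgeR adjusted p = 0.808).

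Hormone-sensing luminal cells were followed through 7 further genes, of which 6 were tested and Tff1 had no count. By sign 5 were lower and 1 was higher in older tumors, with a median log2 fold change of -0.87, and 0 passed an adjusted p of 0.05 in edgeR's test. An unadjusted p under 0.05 was reached by 4, of which Cited1, Prlr and Foxa1 were lower and Ptgs1 higher, against 8.55% of all genes tested. Cited1, a transcriptional coactivator gene found in hormone-sensing cells, was at 12.9, 12.9 and 125 CPM in tumors 102, 107 and 116 and at 407, 123 and 691 CPM in tumors 157, 158 and 167. Its log2 fold change was -3.0 (SE 1.03, edgeR adjusted p = 0.441), and among the pathway genes that passed the filter it was the only one that DESeq2 called (adjusted p = 0.0307), where 2.47% of all genes it tested were called. Ptgs1, a cyclooxygenase gene, was the higher one (log2 fold change 1.01, SE 0.38, edgeR adjusted p = 0.502). Tumor 107, with the most Pgr, had as little Cited1 as tumor 102. For Foxa1, Gata3 and Prlr, in contrast, tumor 107 was the highest older tumor, at 175, 412 and 302 CPM. Tumor 102 was at 24.7, 144 and 113 CPM for these genes.

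For the age comparison as a whole, 8 of the 9 members were tested, 7 higher and 1 lower in older tumors by sign, with a median log2 fold change of 0.98. With adjustment over all genes, edgeR called 0 of the 8 members, as it called 0% of the 14060 genes tested, and the members' adjusted p values ran from 0.311 to 0.942. At an unadjusted p under 0.05 there were 2 members, Fkbp5 and Zbtb16, against a background of 8.55% of all genes tested. All older tumors lay above all younger tumors for 1 of the 8 members, Fkbp5, and for 6.58% of all genes tested. DESeq2 called 1 of the 8 members. The highest value of a member was in tumor 107 for 3 members, in tumor 116 for 3, in tumor 102 for 2 and in a younger tumor, 167, for 1.

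**Figure D5:**
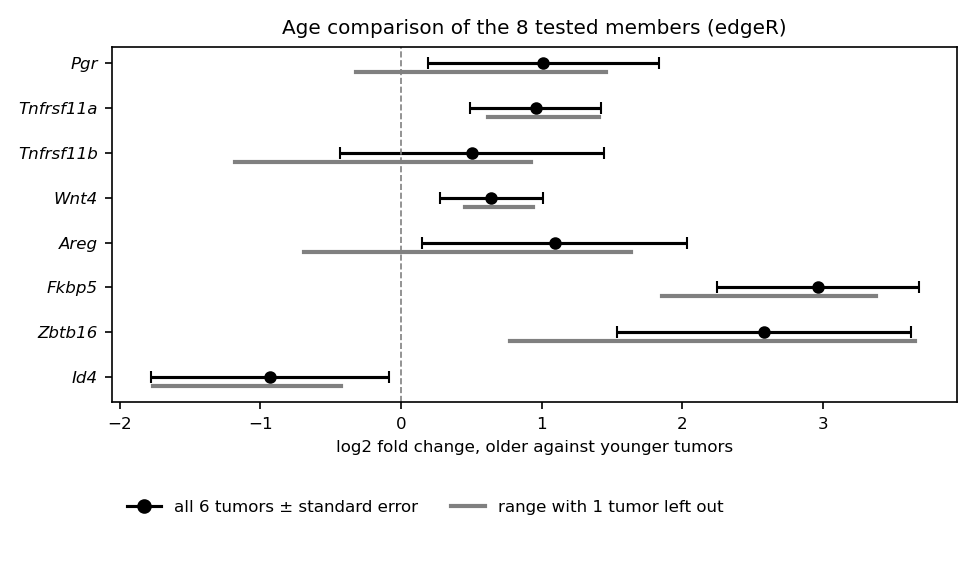
Log2 fold change of the 8 tested members, older against younger tumors, from edgeR (points, with standard errors as bars) and the range of the same value with each tumor left out in turn (gray). Fkbp5 and Zbtb16 have the largest values, at 2.96 and 2.58, and the gray ranges of Pgr, Tnfrsf11b and Areg cross 0.

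Whether the mediators and responsive genes followed the receptor from tumor to tumor was examined with log2 CPM over the 6 tumors, in 8 pairs. Wnt4 had the highest correlation with Pgr (Pearson r = 0.68, exact permutation p = 0.128, adjusted p = 0.827, Spearman rho = 0.54, exact permutation p = 0.297, adjusted p = 0.594). Without tumors 107 and 158, the farthest from the median of Pgr, this r was 0.14. Leaving both out also removes the highest and the lowest Pgr, which narrows its range. With a single tumor left out, r of Wnt4 with Pgr ran from 0.43 to 0.85. Tnfsf11 was not higher where Pgr was higher (r = -0.29, exact permutation p = 0.542, rho = -0.54, exact permutation p = 0.297, and r = -0.69 without tumors 107 and 158). Zbtb16 had r = -0.47 (exact permutation p = 0.328, rho = -0.66, exact permutation p = 0.175, and r = -0.97 without those tumors) and Fkbp5 had r = -0.20 (exact permutation p = 0.724, rho = -0.31, exact permutation p = 0.564, and r = -0.92 without them). The remaining members ran from r = 0.11 (Tnfrsf11a) to 0.49 (Id4). Without tumors 107 and 158 their r was -0.85 (Tnfrsf11a), 0.28 (Tnfrsf11b), 0.65 (Areg) and 0.98 (Id4), over 4 tumors. None of the values of r without tumors 107 and 158 was tested. No pair passed after adjustment over the 8 pairs, with the smallest adjusted p at 0.827 for r and 0.594 for rho (exact permutation tests). With 3 tumors per age group no correlation was calculated within a group.

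Pgr and the ligands Tnfsf11, Wnt4 and Areg can be made by luminal cells, while the cell source of the other members was not tested. Levels of all members were also set against 6 luminal epithelial markers. These markers had a summed level of 1339.7 to 1434 CPM in older tumors and 1747 to 1954 CPM in younger tumors, with all 6 lower in older tumors by sign and 0 called. Relative to the mean log2 CPM of the markers, Fkbp5 was higher in older tumors by 3.0, Wnt4 by 1.05 and Tnfsf11 by 4.19, each with no overlap between the groups (two-sided exact permutation tests, p = 0.1 each, the smallest possible, and 0.3 adjusted over the 9 members). Because the markers themselves were lower in older tumors, by 0.42 on the log2 scale, this moved every gene up by that amount, and 23.7% of all genes tested had all older tumors above all younger tumors on this scale. In plain log2 CPM, Wnt4 and Tnfsf11 overlapped between the groups (two-sided exact permutation tests, p = 0.2 each). Relative to the markers, Wnt4 separated the groups only narrowly, with tumor 102 at -3.65 and tumor 157 at -3.69. For Tnfsf11 the closest values of the groups were those of tumors 107 and 158, which had 4 and 6 counts. For the remaining members the groups overlapped on this scale (two-sided exact permutation tests, p = 0.2 to 0.7).

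Marker levels of several other cell types differed between the tumors, and their part in the results was not tested. Summed T cell markers (5 in the table, 2 tested) were at 15.5 to 83.2 CPM in older and 4.40 to 8.42 CPM in younger tumors. T cells can make RANKL. The sum was highest in tumor 107, mostly from Cd8a at 72.0 CPM, and Cd2 was also highest there, at 5.27 CPM. Cd3d, Cd3e and Cd3g were highest in tumor 116, at 1.35, 5.03 and 2.90 CPM. Of these, Cd3e was higher in tumor 107 (4.17 CPM) than in tumor 102 (3.30 CPM). Summed B and plasma cell markers (4 in the table, 1 tested, Ms4a1 at 0 in every tumor) were at 11.9, 4.39 and 21.1 CPM in tumors 102, 107 and 116 and at 1.66 to 4.05 CPM in younger tumors, in older tumors largely Jchain, and were highest in the tumors with high Tnfsf11. Adipocyte markers (6 in the table, 4 tested) summed to 271 to 666 CPM in older and 75.5 to 221 CPM in younger tumors, largely through Lpl, and the defining gene Adipoq was at 10.2 CPM in tumor 102 and at most 1.55 CPM elsewhere. Macrophage markers (5, all tested) summed to 119 to 264 CPM in older and 56.8 to 106 CPM in younger tumors. Fibroblast markers (6, all tested) ran from 125 to 1253 CPM in older and from 114 to 1007 CPM in younger tumors. Dcn was at 161, 2.19 and 61.2 CPM in tumors 102, 107 and 116 and at 4.04 to 26.0 CPM in younger tumors. Pdgfra and Lum were likewise highest in tumors 102 and 116, the tumors with high Tnfsf11, and lowest in tumor 107. For the collagen genes Col1a1, Col1a2 and Col3a1, younger tumors 157 and 158 lay above tumor 116. Basal and myoepithelial markers (6, all tested) ran from 433 to 2524 CPM in older and from 1822 to 2697 CPM in younger tumors. Endothelial markers (4, all tested) ran from 91.2 to 360 CPM in older and from 58.9 to 298 CPM in younger tumors. Tumor 102, the highest in Fkbp5 and Zbtb16, had the highest fibroblast, adipocyte, macrophage and endothelial sums and the lowest basal sum. Milk protein genes (5, all tested) and skeletal muscle genes (3 in the table, 1 tested) had overlapping sums in both age groups. No marker gene was called in edgeR's test, which called none at all, and these sums are given as levels.

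The genes whose pattern over the 6 tumors was most like that of Pgr, by Pearson r of log2 CPM among 11831 tested genes with a name and a mean of at least 5 CPM, were Evi2a (r = 0.98), Afmid (r = 0.98), Slpi (r = 0.97), Prr5 (r = 0.97) and Ints10 (r = 0.97). Slpi, a secreted protease inhibitor of epithelia, was at 64.7 CPM in tumor 107 and at 4.22 to 26.5 CPM in the others. The genes most like Tnfsf11, among 11832, were Met (r = 0.99), Fbxo32 (r = 0.99), Zfp185 (r = 0.98), Cbx2 (r = 0.98) and Lmcd1 (r = 0.98). Met, the receptor of hepatocyte growth factor, was at 248 CPM in tumor 102 and 259 CPM in tumor 116 and at 55.8 to 70.4 CPM in the other tumors. These values of r rest on 6 tumors and are a description only.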

How the data were processed

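Bulk RNA-seq of 6 mammary tumors of F344 rats, 3 older and 3 younger, was analysed as 1 library per tumor. The labels name polyA RNA and reads of 100 bases, while the protocol describes ribosomal RNA depletion. The authors checked reads with FastQC 0.11.7, trimmed adapters with Trimmomatic 0.38, aligned them with STAR 2.7.9a, marked duplicates with Picard 2.18.12 and deposited read counts per gene from HTSeq 0.13.5, without normalization; the submitters' processing notes name the build mRatBN7.2. Annotation release, strand setting and use of marked duplicates are not given in the sources used here, so reads of overlapping genes may be shared. Columns were matched to tumors by the tumor number. Rows without a gene name held 2.17% to 3.64% of the counts and stayed in library sizes and tests.

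The main test was the quasi-likelihood test of edgeR 4.0.16 (R 4.3.3) by age group, on counts as deposited. Its filterByExpr step retained 14060 of 30562 rows, TMM scaled the libraries, and p-values were adjusted by Benjamini-Hochberg over these rows at a threshold of 0.05. Standard errors were derived from the F statistic. CPM carried the TMM scaling, log2 CPM a prior count of 2 and ratios within a tumor a pseudocount of 0.5. Ratios, levels relative to markers and correlations were tested by two-sided exact permutation over tumors. Scripts were tested on simulated data. Each tumor carries its own number, and the column headers add a code after it. The code is letters only for tumor 102 and letters with digits for the others, and the sources used here do not explain it. The study gives 3 older and 3 younger rats for the mutational burden of its sequenced tumors, so each tumor was taken to come from a different rat. P-values measure the spread between these tumors.

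The members, gene lists and tests were chosen with earlier results of these data known. The rule for naming genes covered the members, the listed steroid and membrane receptors (1 of them is not reported here), the gene with the smallest p in each direction in each other pathway list, and the 5 genes most like Pgr and Tnfsf11. Nfkb2, Relb, Map3k14, Rspo1, Ereg, Prlr, Foxa1, Gata3, Tsc22d3 and Per1 and the marker genes given with values were named after their values were seen. Alternatives were the Wald test of DESeq2 1.42.0, limma 3.58.1 with voom, scaling by library totals or size factors, looser and stricter count filters, removal of the 10 most abundant genes, other prior counts and markers, and each tumor left out. A DESeq2 fit on all rows and an edgeR fit without the unnamed rows were chosen after seeing the data. Of the listed genes Dusp1, Krt19, Krt14, Cd4 and Mylpf were not analysed here. Promoters came from RefSeq (GRCr8), matched by symbol. No column of the table was left unused.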

Additional observations from a re-analysis of the deposited data

How the results depend on the processing

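No paired analysis was possible because older and younger tumors have no replicate number in common. The number of members past the threshold, 0 of 8 in edgeR, was 1 with the DESeq2 Wald test and 2 with that test on all rows, chosen after seeing the data. The number of genes past the threshold, 0, was 346 and 368 in these fits and 1 with all genes of at least 1 count, and the number among the pathway lists, 0, was 1 and 2 (Cited1, then Cited1 and Rspo1). An edgeR fit without the unnamed rows, also chosen after seeing the data, tested 13139 genes and called 0. These 3 counts were 0 in each fit that left out a tumor and with the remaining alternatives. The DESeq2 and edgeR fits differ in their treatment of the spread, and the cause of the difference was not tested.

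Of the log2 fold changes of members, 3 values turned sign, each with a tumor left out: Pgr (-0.32) and Tnfrsf11b (-1.18) without older replicate 107, and Areg (-0.69) without older replicate 116. None turned sign under another scaling, filter or test. Across the fits with a tumor left out, Pgr ran from -0.32 to 1.46, Tnfrsf11b from -1.18 to 0.92, Areg from -0.69 to 1.64, Zbtb16 from 0.78 to 3.66 and Fkbp5 from 1.86 to 3.38. Tnfsf11 passed the filter in 4 of these 6 fits, with values from 5.42 to 6.18. It did not pass without tumor 102 or without tumor 116, so this range does not show how far the value depended on those tumors. The smallest adjusted p of Tnfsf11, 0.0938 (edgeR), came from the fit without tumor 107, the older tumor with only 4 counts. The differences of the log2 ratios kept their sign, with ranges of 2.37 to 6.83 (Tnfsf11 to Tnfrsf11b), 1.62 to 5.33 (Tnfsf11 to Tnfrsf11a) and 1.04 to 1.82 (Pgr to Esr1). Relative to epithelial markers, Tnfrsf11b turned to -0.45 without tumor 107 and -0.19 without tumor 167, Areg to -0.67 without tumor 116 and Id4 to 0.26 without tumor 102, with ranges of -0.45 to 1.10, -0.67 to 1.69 and -1.46 to 0.26. The correlation with Pgr turned for Tnfrsf11a (-0.75) and Tnfrsf11b (-0.39) without tumor 107 and for Fkbp5 (0.17) without tumor 102, with ranges of -0.75 to 0.32, -0.39 to 0.81 and -0.47 to 0.17. Library totals of 3508571 to 6525830 counts limit Tnfsf11 and Tnfrsf11b, which had 6 counts or fewer in 4 and 2 tumors.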
